A study of Homo sapiens with 52 samples.

Results

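The 6 non-targeting (NT) control samples of SUM159PT were compared with the 6 NT control samples of MDA-MB-231, 12 of the 52 samples of a study in which the co-receptor neuropilin-1 (NRP1) was knocked down in claudin-low breast cancer cell lines. Both are established human triple-negative cell lines, grown in the same medium, and no library compared here received an NRP1-targeting sequence. In each line, 3 siNT samples had been transfected with 20 nM of a negative control siRNA and harvested after 72 h, and 3 shNT samples had been transduced with a lentivirus carrying a non-targeting shRNA, selected with puromycin and harvested after 48 h. Cell line was therefore crossed with modality (siNT or shNT), and the line difference was taken across both modalities, with modality as a covariate. Each line is a single cell line, so a difference between them is a difference between these cultures and not between tumour classes, and, for shRNA, the replicates were successive passages of the cells.

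Claudin-low tumours are a class of mostly triple-negative breast cancers named for low expression of the tight junction claudins 3, 4 and 7 and of E-cadherin. They carry mesenchymal genes in place of much of the epithelial programme, a state close to that reached in an epithelial-to-mesenchymal transition (EMT), in which transcription factors of the SNAI, ZEB and TWIST families repress junction genes. Both lines are widely used as models of this class, and the question the comparison answers is how far their transcriptomes differ before any knockdown.

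The 12 libraries held 37007132 to 63173667 expected counts each (median 47650511 in SUM159PT and 51009216 in MDA-MB-231). Levels are given as CPM, counts scaled to a common library total. Library profiles correlated at 0.961 to 0.993 within a group, at 0.928 to 0.981 between the modalities of a line and at 0.777 to 0.836 between lines. The leading dimension of a multidimensional scaling plot separated the lines and carried 79.1% of the variance of its distances. Those distances use only the genes most different between each pair of samples, so the share is not one of all expression variance. The SUM159PT siNT 2 library stood apart, with 12.5% of its counts in 10 genes, the top of a range of 5.47% to 12.5% over the 12 libraries, and with the highest IL6, CXCL8, LIF and S100A9 of its line. The MDA-MB-231 siNT 3 and siNT 2 libraries held 45 genes typical of the third cell line of the study, HS578T, at a median of 0.404% and 0.0854% of the HS578T level, against 0 in the other 4 MDA-MB-231 libraries and 0.0451% to 0.122% in the SUM159PT libraries, so that siNT 3 lay above all others and siNT 2 within the SUM159PT range. Values of genes that HS578T expresses strongly, such as COL1A2 or BGN, were higher in siNT 2 and siNT 3 than in the other 4 MDA-MB-231 libraries, and the part this played in each result was not tested beyond leaving the libraries out.

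Of 19420 genes tested, 11979 (61.7%) differed between the lines at an adjusted p under 0.05, 5899 of them (30.4%) higher in SUM159PT and 6080 (31.3%) higher in MDA-MB-231. A stricter test, of whether the difference was larger than 2-fold, was passed by 5287 genes (27.2%). Of these, 2714 (14.0% of the genes tested) were higher in SUM159PT and 2573 (13.2%) in MDA-MB-231, and 51.3% of the calls were therefore towards SUM159PT. That share was 53.0% and 53.4% with other scalings of the counts (RLE size factors and upper quartile). It was 56.6% in the siNT samples alone (2545 against 1953 genes) and 44.6% in the shNT samples alone (2153 against 2675). When the deposited TPM values were tested with limma, which changes scaling, length correction, offset and test together, it was 37.3% (1021 against 1717 genes), and the median log2 fold change of the same genes moved by -0.31. Without SUM159PT siNT 2, 5651 genes passed, and without MDA-MB-231 siNT 2 and siNT 3, 5373 passed. The median log2 fold change over all genes tested was -0.01. The word past is used below for genes that passed the 2-fold test, fold changes are SUM159PT over MDA-MB-231 with standard errors (SE), n = 6 per line, and levels are CPM after TMM normalisation, given as the lowest to the highest of the 6 samples with the median. The samples of the lines did not overlap for 7290 of the genes tested (37.5%), 17.6% higher in SUM159PT and 20.0% higher in MDA-MB-231. Counts of list members past 2-fold stand beside the 14.0% and 13.2% of all genes tested.

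**Figure D1:**
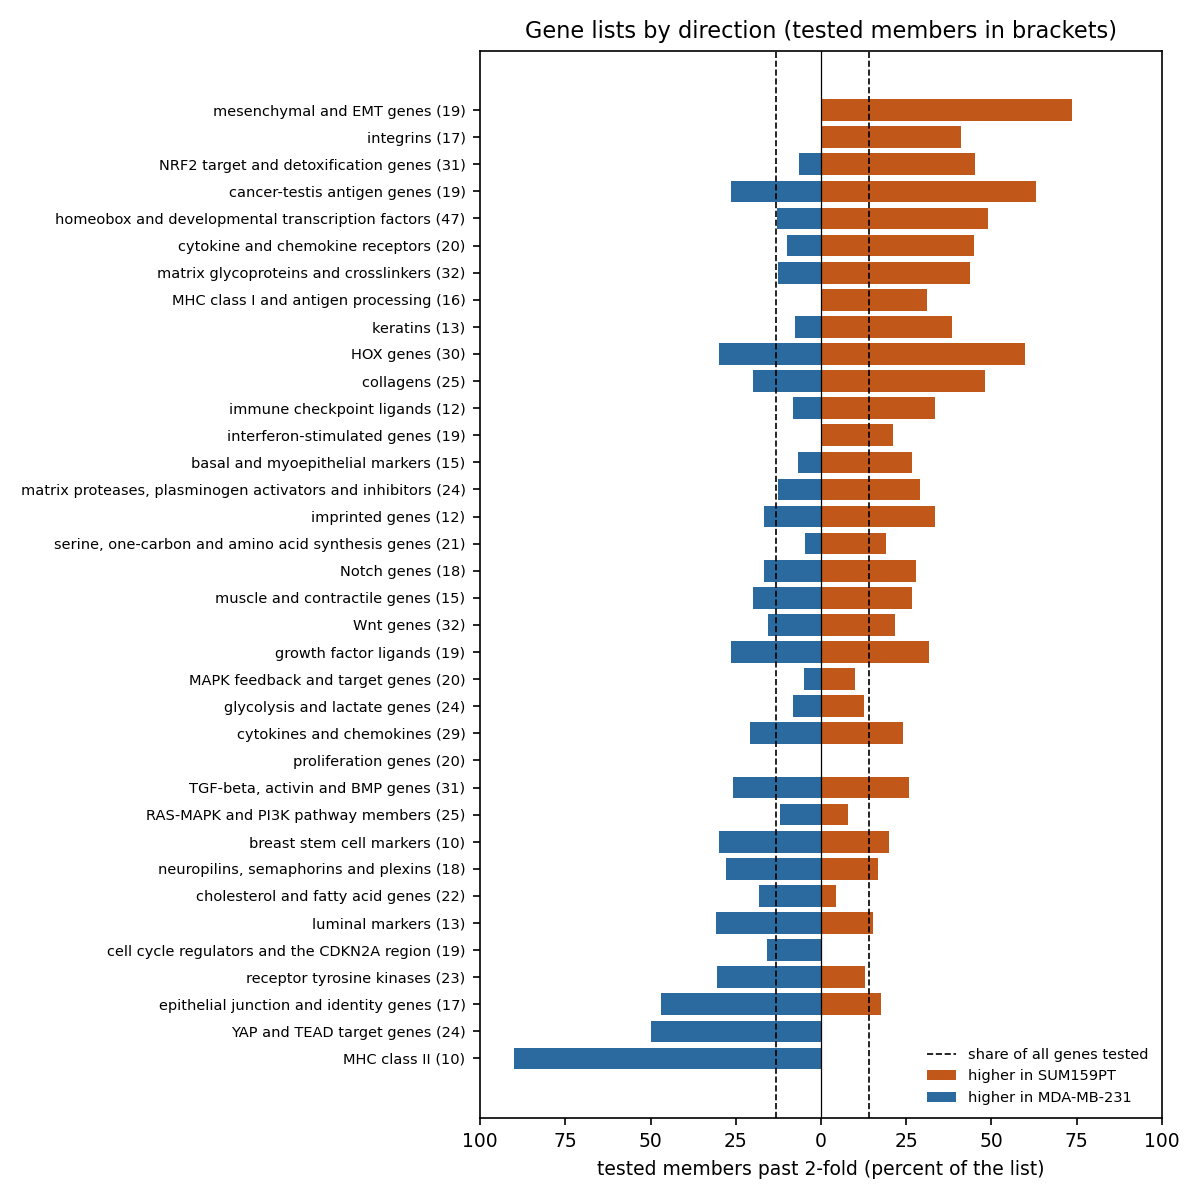
Percent of the tested members of each gene list past 2-fold, higher in SUM159PT (orange, right) and higher in MDA-MB-231 (blue, left), for lists with 10 or more tested members (their number in brackets), with the shares of all genes tested as dashed lines (14.0% and 13.2%). Mesenchymal genes lead on the SUM159PT side with 14 of 19, and MHC class II (9 of 10) and YAP and TEAD target genes (12 of 24) on the MDA-MB-231 side.

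Claudins, E-cadherin and the other genes of epithelial junctions mostly stood higher in MDA-MB-231. Of 17 tested members of the epithelial junction and identity list, 8 were past 2-fold towards MDA-MB-231 and 3 towards SUM159PT, with a median log2 fold change of -1.91. CLDN4, a tight junction claudin, measured 1.46 to 2.80 CPM (median 2.04) in SUM159PT and 139 to 198 CPM (median 182) in MDA-MB-231, 89.1-fold higher in MDA-MB-231 (log2 fold change -6.48 ± 0.15, adjusted p = 3.1e-12). CLDN7 measured 0.0667 to 0.443 CPM (median 0.290) against 15.4 to 43.3 CPM (median 29.0) (log2 fold change -6.71 ± 0.35, adjusted p = 1.9e-09). CLDN3 measured 0.0167 to 0.120 CPM (median 0.0368) against 5.29 to 10.2 CPM (median 6.85) (log2 fold change -7.11 ± 0.40, adjusted p = 3.9e-09). For all 3 claudins the samples of the lines did not overlap, and the SUM159PT values of CLDN3 and CLDN7 were under 1 CPM throughout. The fourth gene that names the class, CDH1 (E-cadherin), was low in both lines, at 0.0212 to 1.09 CPM (median 0.264) and 0.457 to 1.70 CPM (median 0.996), with overlapping samples, and passed at an adjusted p of 0.0083 but not the 2-fold test.

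The same direction was seen for EPCAM, an epithelial adhesion molecule, at 0.1 to 0.459 CPM (median 0.220) against 12.8 to 26.6 CPM (median 19.4) (log2 fold change -6.36 ± 0.31, adjusted p = 9.2e-10), and for ESRP2, an epithelial splicing regulator, at 0.102 to 0.212 CPM (median 0.146) against 12 to 18.2 CPM (median 15.1) (log2 fold change -6.57 ± 0.23, adjusted p = 5.3e-11). The protease gene ST14 (matriptase) differed by -4.69 ± 0.27 on the log2 scale, OCLN (occludin) by -2.99 ± 0.19 and DSP (desmoplakin) by -1.91 ± 0.28, each without overlap. GRHL2, OVOL1 and OVOL2, transcription factors that maintain epithelial identity, did not pass the filter on low counts in these samples, with 2 and 6 counts of GRHL2 over the 6 SUM159PT and 6 MDA-MB-231 libraries. Some epithelial genes ran the other way. The desmosome and adherens junction plaque gene JUP (plakoglobin) measured 140.4 to 622 CPM (median 469.9) in SUM159PT against 59.3 to 102 CPM (median 75.5) in MDA-MB-231, CDH3 (P-cadherin) 3.35 to 20.1 CPM (median 7.57) against 0.950 to 1.89 CPM (median 1.38), and CD24, a surface glycoprotein, 66.0 to 212 CPM (median 97.4) against 1.72 to 4.68 CPM (median 2.72). All 3 were past 2-fold towards SUM159PT, without overlap (2.48 ± 0.26, 2.57 ± 0.42 and 5.26 ± 0.39 on the log2 scale). ESRP1, the paralogue of ESRP2, was called towards SUM159PT but not past 2-fold. CLDN1, TJP3, ELF3 and PKP3 did not pass the test.

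The promoters of the claudins are shown because E-boxes are known sites through which the EMT factors act at junction genes. Whether these factors act on the claudins in these lines was not tested. CAGGTG and its reverse complement CACCTG, a common E-box, were searched on both strands in RefSeq promoters (GRCh38.p14, 250 bases before to 50 bases after a transcription start) and stand in capitals. Of 27305 genes with an entry, 24.1% held them in at least 1 of their promoters, as did 8 of the 10 genes of the epithelial list that had an entry. The 8 did not share a direction. CLDN3, CLDN7, OCLN and DSP were past 2-fold towards MDA-MB-231 and JUP and CD24 towards SUM159PT, and TJP3 and ELF3 did not pass. The CLDN7 window (chr17:7262429-7262728, minus strand) held 5, the CLDN3 window (chr7:73770221-73770520, minus strand) 1 and the CLDN4 window (chr7:73830746-73831045, plus strand) 0, and a further CLDN7 entry held 0. A match is a description of the letters and not of a bound site.
CLDN7: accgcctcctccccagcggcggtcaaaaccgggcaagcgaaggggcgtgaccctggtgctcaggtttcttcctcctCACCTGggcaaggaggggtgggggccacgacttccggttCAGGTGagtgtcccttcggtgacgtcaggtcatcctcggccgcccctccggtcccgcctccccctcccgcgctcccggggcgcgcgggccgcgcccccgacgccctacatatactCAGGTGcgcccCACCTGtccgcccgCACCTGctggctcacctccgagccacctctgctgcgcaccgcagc
CLDN3: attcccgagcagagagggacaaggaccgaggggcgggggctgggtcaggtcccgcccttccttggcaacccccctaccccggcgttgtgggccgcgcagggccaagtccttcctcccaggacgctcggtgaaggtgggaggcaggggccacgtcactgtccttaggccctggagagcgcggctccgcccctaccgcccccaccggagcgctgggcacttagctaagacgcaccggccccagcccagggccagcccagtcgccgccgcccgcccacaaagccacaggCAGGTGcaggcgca
CLDN4: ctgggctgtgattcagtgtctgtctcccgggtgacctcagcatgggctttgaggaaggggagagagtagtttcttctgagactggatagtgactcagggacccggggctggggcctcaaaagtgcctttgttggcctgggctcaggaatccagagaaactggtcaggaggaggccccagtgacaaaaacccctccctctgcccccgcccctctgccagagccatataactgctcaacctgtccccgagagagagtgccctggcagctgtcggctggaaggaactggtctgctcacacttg

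Mesenchymal genes moved the other way. Of 19 tested members of the mesenchymal and EMT list, 14 were past 2-fold towards SUM159PT and 0 towards MDA-MB-231 (median log2 fold change 2.99). Of the 19, 13 had no overlap towards SUM159PT, against 17.6% of all genes tested. The TWIST transcription factors were near 0 in MDA-MB-231. TWIST1 measured 5.76 to 11.7 CPM (median 8.54) against 0 to 0.144 CPM (median 0), and TWIST2 measured 19.6 to 48.3 CPM (median 37.5) against 0 to 0.410 CPM (median 0.00879) (8.46 ± 0.65 and 8.88 ± 0.74 on the log2 scale). The highest MDA-MB-231 value of both was that of siNT 3, one of the libraries with HS578T genes. TCF4, an E-protein partner of TWIST, had 1 count in the 6 MDA-MB-231 libraries against 3322 in SUM159PT, a ratio of depth-scaled counts of 3695 (95% interval 663 to 145934). Reads carried no molecular identifiers, so that interval and those below cover counting error only. SNAI1 (Snail) measured 24.0 to 43.5 CPM (median 29.9) against 6.15 to 10.3 CPM (median 7.33) (log2 fold change 2.10 ± 0.18, adjusted p = 2.2e-07) and ZEB2 12.1 to 23.4 CPM (median 22.4) against 6.83 to 10.7 CPM (median 8.21) (log2 fold change 1.29 ± 0.16, adjusted p = 7.4e-06). ZEB1 went the other way, at 7.20 to 27.0 CPM (median 15.3) against 24.5 to 46.3 CPM (median 34.2) with overlapping samples (log2 fold change -1.09 ± 0.28, adjusted p = 0.0037), and SNAI2 (Slug) measured 7.46 to 16.4 CPM (median 11.4) and 7.09 to 15.3 CPM (median 11.7), which did not pass the test (0.02 ± 0.21).

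Among the effectors, CDH2 (N-cadherin), the cadherin gained in EMT, measured 55.0 to 90.5 CPM (median 64.5) against 0.211 to 0.574 CPM (median 0.295), 211-fold higher in SUM159PT (log2 fold change 7.72 ± 0.27, adjusted p = 6.2e-11). MMP2, a gelatinase that cuts basement membrane collagen, measured 564 to 2372 CPM (median 1079) against 0.123 to 3.67 CPM (median 0.379) (log2 fold change 10.58 ± 0.60, adjusted p = 4.1e-09), and the matricellular gene SPARC 808 to 1786 CPM (median 1294) against 3.64 to 21.7 CPM (median 6.64) (log2 fold change 7.25 ± 0.38, adjusted p = 1.8e-09). The lines did not overlap for any of the 3. VIM (vimentin), the intermediate filament of mesenchymal cells, was abundant in both, at 4059.6 to 8216 CPM (median 4894) and 2568 to 3209 CPM (median 2919), higher in SUM159PT but not past 2-fold (0.87 ± 0.16). The genes FOXC1 (0.20 ± 0.29) and S100A4 (0.08 ± 0.22) did not pass the test. MMP2 and SPARC also had their highest MDA-MB-231 values in siNT 3, still far below every SUM159PT value.

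**Figure D2:**
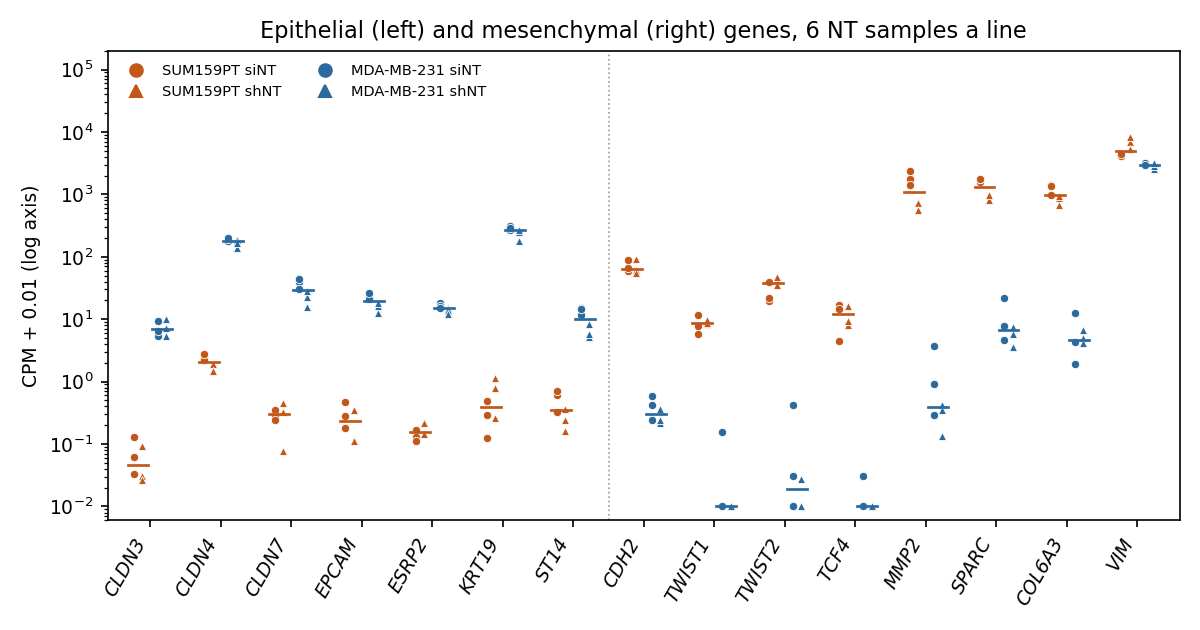
CPM (log axis, 0.01 added, so that 0 lies at the bottom) of 7 epithelial genes and 8 mesenchymal genes in each NT sample of SUM159PT (orange) and MDA-MB-231 (blue), circles for siNT and triangles for shNT, lines for the median of 6. The genes drawn are a selection, with KRT19 and COL6A3 taken from lists other than the epithelial and mesenchymal ones. For those left of the dotted line every MDA-MB-231 sample lies above every SUM159PT sample, and to the right the reverse holds. Not drawn are JUP, CDH3 and CD24, past 2-fold towards SUM159PT, and CDH1, ZEB1 and SNAI2, whose samples overlap.

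Keratins, the intermediate filaments of epithelia, did not share a direction, with 6 of 13 tested higher in SUM159PT, 3 higher in MDA-MB-231 and 4 that did not pass. At the same adjusted p under 0.05, 30.4% and 31.3% of all genes tested were higher in SUM159PT and in MDA-MB-231. The keratins of simple epithelia were abundant in both lines, with KRT8 at 655 to 1342 CPM (median 1089) and 938 to 1675 CPM (median 1243), which did not pass the test (-0.29 ± 0.16), and KRT18 at 425 to 692 CPM (median 583) and 717 to 1052 CPM (median 813) (-0.60 ± 0.11, adjusted p = 0.00027). KRT19, which marks luminal cells, was 522-fold higher in MDA-MB-231, at 0.113 to 1.14 CPM (median 0.386) against 178 to 306 CPM (median 269) (log2 fold change -9.03 ± 0.45, adjusted p = 1.1e-09). KRT17, a basal keratin, measured 16.8 to 83.1 CPM (median 37.9) in SUM159PT against 0.841 to 1.72 CPM (median 1.26) (log2 fold change 4.93 ± 0.36, adjusted p = 4.8e-08), and KRT7 552 to 1324 CPM (median 859) against 183 to 251 CPM (median 219) (log2 fold change 2.04 ± 0.18, adjusted p = 3.9e-07). Of the 13, 5 were past 2-fold towards SUM159PT and 1 towards MDA-MB-231. Keratin genes are near-copies of each other in places, and the read assignment of RSEM can split reads among them. TP63, the transcription factor of basal and myoepithelial cells, measured 49.3 to 105 CPM (median 78.0) in SUM159PT against 0.182 to 0.677 CPM (median 0.257) in MDA-MB-231, 239-fold (log2 fold change 7.90 ± 0.32, adjusted p = 1.7e-10). In the basal and myoepithelial list as a whole, 4 of 15 were past 2-fold towards SUM159PT and 1 towards MDA-MB-231.

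The triple-negative label was checked against the receptors. ESR1, the oestrogen receptor, was under 0.1 CPM in every sample of both lines and was not tested. PGR, the progesterone receptor, had 3 counts in SUM159PT and 0.243 to 0.413 CPM (median 0.3) in MDA-MB-231, a ratio of 30.0 (95% interval 10.3 to 146) towards MDA-MB-231. ERBB2 measured 86.9 to 125 CPM (median 108) and 83.5 to 119 CPM (median 98.5), which did not pass the test (0.13 ± 0.11). FOXA1, a luminal pioneer factor, had 397 counts in SUM159PT against 3 in MDA-MB-231, a ratio of 148 (95% interval 50.7 to 718). GATA3, a further luminal factor, was higher in MDA-MB-231 (-1.31 ± 0.27) but not past 2-fold, and the prolactin receptor PRLR was 12.2-fold higher there (log2 fold change -3.60 ± 0.34, adjusted p = 6.2e-07). Luminal genes thus did not share a direction, with 2 of 13 past 2-fold towards SUM159PT and 4 towards MDA-MB-231, against 14.0% and 13.2% of all genes tested. Of the markers used to sort breast stem-like cells, CD44, a hyaluronan receptor, was abundant in both lines, at 846 to 1555 CPM (median 1102) and 749 to 996 CPM (median 809) (0.42 ± 0.14). The aldehyde dehydrogenase ALDH1A3 was 2.95-fold higher in MDA-MB-231 and SOX9 14.6-fold, and the drug efflux pump ABCG2 was 11.1-fold higher in SUM159PT.

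The HOX genes, which encode the homeodomain factors that set position along the body axis and lie in 4 genomic clusters, differed cluster by cluster. Of 39 HOX genes, 9 did not pass the filter on low counts. Of the 30 tested, 18 were past 2-fold towards SUM159PT and 9 towards MDA-MB-231, against 14.0% and 13.2% of all genes tested. However, 8 of the 30 had 0 counts in 1 line and passed the filter through the other line alone. For these the entry and the fold rest on the same values, so the shares of all genes tested are not a like background. The median log2 fold change of the list was 5.80, or 5.14 with genes at 0 counts in a line placed at their bound. The summed HOXA level was 25.5 to 38.1 CPM in SUM159PT and 0.344 to 1.21 CPM in MDA-MB-231, and the summed HOXC level 87.0 to 131 CPM against 2.14 to 3.28 CPM. The HOXB sum ran the other way, at 1.95 to 3.44 CPM against 30.8 to 45.1 CPM.

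Within HOXA, 9 of 10 tested genes were past 2-fold towards SUM159PT. HOXA10 measured 8.16 to 12.4 CPM (median 11) with 1 count in all MDA-MB-231 libraries, a ratio of 3365 (95% interval 604 to 132922). HOXA3 had 0 counts in MDA-MB-231 and was at least 498-fold higher in SUM159PT against a floor of 3 counts over the 6 libraries, and HOXA5 at least 233-fold. The exception was HOXA13, the 5′-most gene, at 0.5 to 1.42 CPM (median 1.03) and 0.283 to 1.15 CPM (median 0.741), which did not pass the test. Within HOXC, 7 of 8 were towards SUM159PT. HOXC10 measured 38.3 to 61.7 CPM (median 47.7) against 0 to 0.103 CPM (median 0) (log2 fold change 10.74 ± 0.47, adjusted p = 3.7e-10), and HOXC13, at 10.9 to 18.5 CPM (median 12), had 1 count in MDA-MB-231. HOXC6 and HOXC8, in the middle of the cluster, were detected in both lines, and HOXC6 differed by 3.16 ± 0.18 on the log2 scale, from 0.825 to 1.19 CPM (median 1.03) in MDA-MB-231 to 6.71 to 11.2 CPM (median 9.45) in SUM159PT.

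Within HOXB, 6 of 8 tested genes were past 2-fold towards MDA-MB-231. HOXB9 accounted for most of the sum, at 0 to 0.215 CPM (median 0.0609) in SUM159PT against 24.6 to 38.0 CPM (median 27.7) in MDA-MB-231 (log2 fold change -8.59 ± 0.42, adjusted p = 9.4e-10), and HOXB3 measured 0.0333 to 0.359 CPM (median 0.150) against 3.28 to 4.43 CPM (median 4.03) (log2 fold change -4.44 ± 0.38, adjusted p = 2.5e-07). HOXB13, which stands apart at the far end of the cluster, went towards SUM159PT (1.23 to 2.61 CPM (median 1.78) against 0 to 0.0615 CPM (median 0.00879), 6.41 ± 0.51). The HOXD cluster was split. HOXD1, HOXD3 and HOXD4 had 0 counts in every SUM159PT library and measured 1.85 to 5 CPM (median 2.80), 1.35 to 1.94 CPM (median 1.67) and 3.11 to 4.47 CPM (median 3.70) in MDA-MB-231, at least 286-fold, at least 152-fold and at least 350.4-fold higher. Their neighbour HOXD8 had 0 counts in every MDA-MB-231 library and measured 1.10 to 3.23 CPM (median 1.36) in SUM159PT, at least 181-fold higher.

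**Figure D3:**
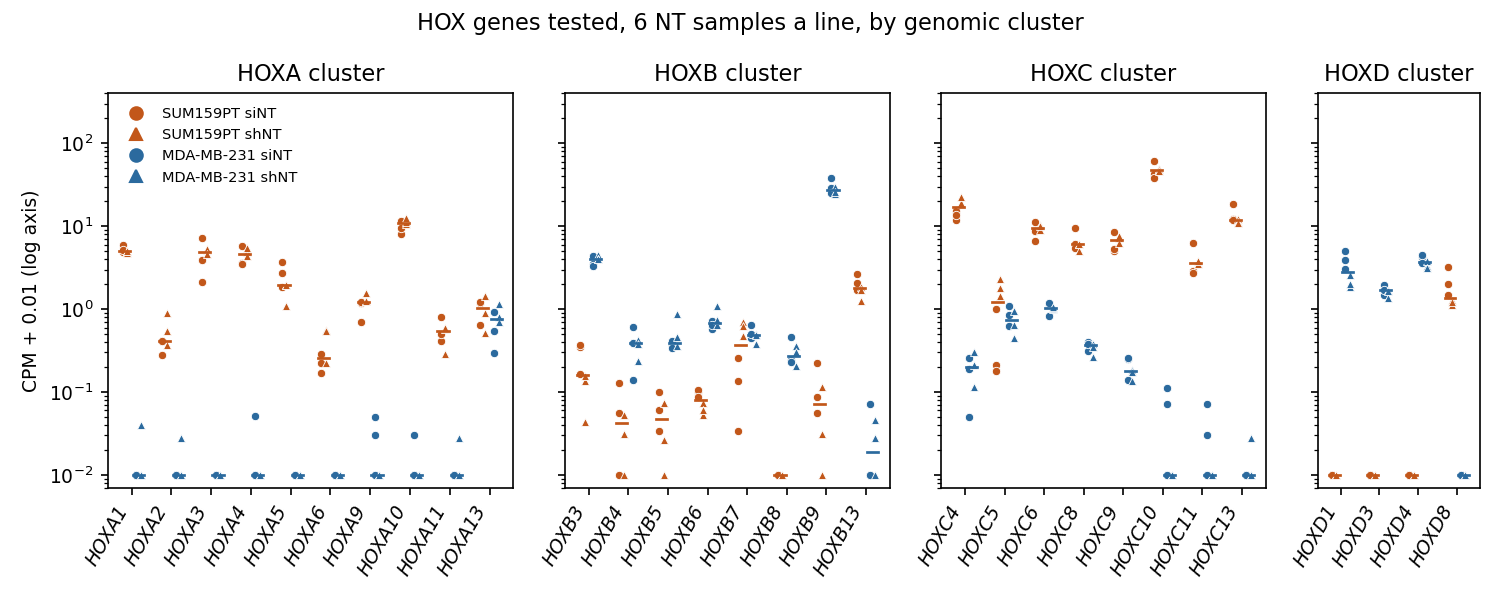
CPM (log axis, 0.01 added, so that 0 lies at the bottom) of the 30 tested HOX genes in each NT sample, in 4 panels by cluster and in order of gene number, SUM159PT in orange and MDA-MB-231 in blue, circles for siNT and triangles for shNT, lines for the median of 6. Apart from HOXA13 and HOXC5, whose samples overlap, HOXA and HOXC genes lie higher in SUM159PT, and most HOXB genes higher in MDA-MB-231, and HOXD1, HOXD3 and HOXD4 lie opposite to HOXD8.

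Other developmental transcription factors also differed between the lines. Of 47 tested members of the list, 23 were past 2-fold towards SUM159PT and 6 towards MDA-MB-231 (median log2 fold change 1.297). IRX2, an Iroquois homeobox factor, measured 328 to 892 CPM (median 616) in SUM159PT against 0 to 0.0615 CPM (median 0.0101) in MDA-MB-231, 5 counts in all. FOXF1, a forkhead factor of mesenchyme, measured 18.6 to 29.0 CPM (median 25.1) with 2 counts in MDA-MB-231, EN1 (engrailed) 12.6 to 23.3 CPM (median 14.3) with 1 count, and the T-box gene TBX3 35.0 to 52.5 CPM (median 42.3) against 0 to 0.451 CPM (median 0.0101). ZIC1 had 0 counts in MDA-MB-231 and was at least 625-fold higher in SUM159PT, at 4.28 to 7.54 CPM (median 5.78). In the other direction, SIX2 measured 10.4 to 17.3 CPM (median 15.0) in MDA-MB-231 with 1 count in SUM159PT, a ratio of 3986 (95% interval 715 to 157425). TBX1 measured 8.96 to 13.2 CPM (median 10.1) against 0 to 0.0957 CPM (median 0.0212), and the nuclear receptor gene NR2F2 64.6 to 158 CPM (median 102) against 12.3 to 15.0 CPM (median 13.4) (log2 fold change -2.89 ± 0.17, adjusted p = 4.5e-09). Each of these genes was at or close to 0 in the lower line except NR2F2, which both lines expressed.

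Target genes of YAP and TEAD formed a group that stood almost wholly towards MDA-MB-231. YAP is a transcriptional co-activator that the Hippo kinases hold out of the nucleus in dense or unstretched cells, and it acts through TEAD proteins at genes of adhesion, cytoskeleton and growth. Of the 24 target genes, all tested, 19 were higher in MDA-MB-231 at an adjusted p under 0.05, against 31.3% of all genes tested. Past 2-fold were 12 of them, and 0 towards SUM159PT. Of the 24, 15 had no overlap towards MDA-MB-231, against 20.0% of all genes tested. The median log2 fold change was -1.28 against -0.01 over all genes tested. ANKRD1, an ankyrin repeat protein of the nucleus and sarcomere, measured 0.0333 to 0.614 CPM (median 0.255) in SUM159PT and 122 to 322 CPM (median 189) in MDA-MB-231 (log2 fold change -9.60 ± 0.44, adjusted p = 5.6e-10). The secreted matricellular genes CCN1 and CCN2 measured 65.0 to 226 CPM (median 138) and 14.4 to 46.1 CPM (median 33.8) in SUM159PT against 496 to 1130.1 CPM (median 901) and 151 to 234 CPM (median 156) in MDA-MB-231 (-2.54 ± 0.33 and -2.45 ± 0.29 on the log2 scale). None of the 3 overlapped between the lines, and CCN1 and CCN2 were well detected in both.

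The feedback members of the pathway followed. AMOTL1 and AMOTL2, which bind YAP at junctions, differed by -1.999 ± 0.12 and -1.43 ± 0.12, the kinase gene LATS2 by -1.63 ± 0.14 and its scaffold WWC1 (KIBRA) by -2.28 ± 0.18, all towards MDA-MB-231 without overlap. The receptor tyrosine kinase AXL measured 183 to 442 CPM (median 274) against 779 to 1097 CPM (median 941), TGFB2 12.2 to 32.5 CPM (median 17.5) against 50.7 to 102 CPM (median 68.8), and the ectonucleotidase NT5E (CD73) 34.1 to 83.8 CPM (median 38.5) against 231.3 to 338 CPM (median 295) (log2 fold change -2.64 ± 0.18, adjusted p = 2.4e-08). FOXF2 was the member higher in SUM159PT (11.7 to 26.5 CPM (median 21.6) against 7.94 to 11.7 CPM (median 8.46), 1.09 ± 0.21), and ARHGEF17, GADD45A, RBMS3 and FJX1 did not pass the test, with log2 fold changes of -0.27 ± 0.17, 0.20 ± 0.19, 0.28 ± 0.27 and -0.27 ± 0.17. The matrix gene THBS1 (thrombospondin 1), which was not in the list, measured 57.8 to 468 CPM (median 157) against 592 to 1523 CPM (median 954) (log2 fold change -2.40 ± 0.45, adjusted p = 0.00037).

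**Figure D4:**
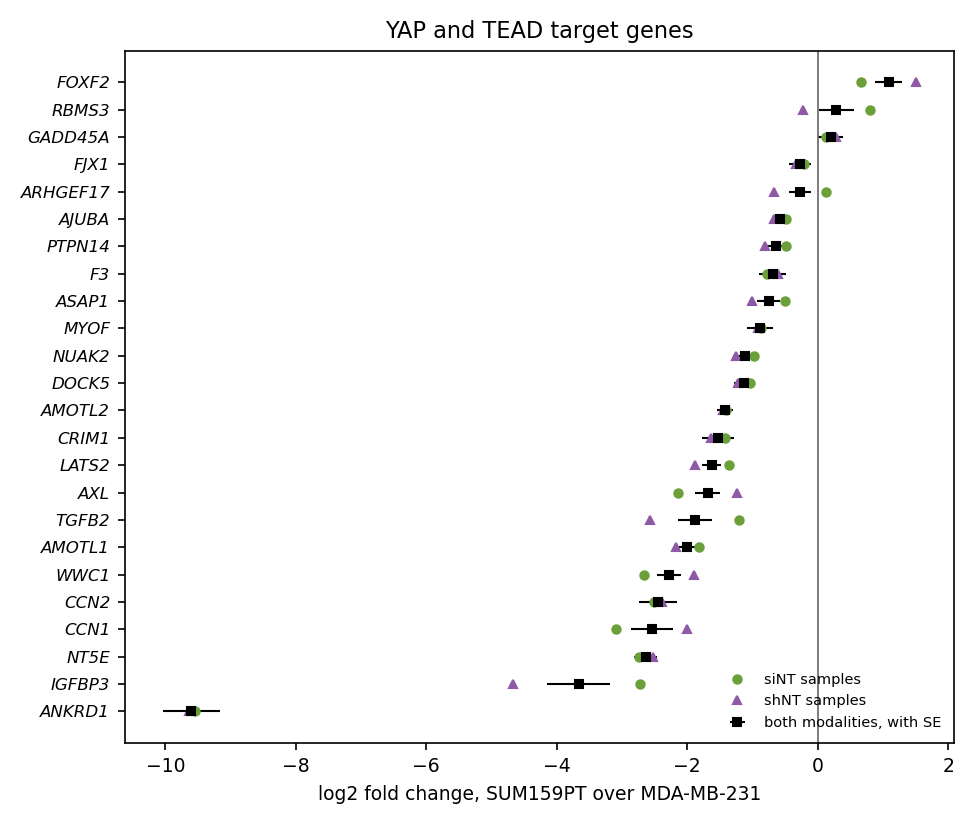
Log2 fold change, SUM159PT over MDA-MB-231, of the 24 YAP and TEAD target genes, black squares for the fit over both modalities with its SE, green circles for the siNT samples and purple triangles for the shNT samples. The 3 estimates of a gene lie on the same side of 0 for 22 of the 24 genes, RBMS3 and ARHGEF17 being the exceptions, and ANKRD1 lies furthest out, at -9.60.

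Promoters of 2 of these genes are shown because the lines differ in them together. GGAATG and its reverse complement CATTCC, the core of the element that TEAD proteins bind, stand in capitals. Of 27305 genes with a RefSeq promoter of 300 bases (GRCh38.p14), 16.7% held them in at least 1 promoter, as did 10 of the 18 listed genes with an entry. FOXF2, the member higher in SUM159PT, was among the 10. The CCN2 window (chr6:131951323-131951622, minus strand) held 3, 169, 104 and 95 bases before the start, and the ANKRD1 window (chr10:90921038-90921337, minus strand) held 2, 220 and 128 bases before it. A match is a description of these letters, not evidence of binding in either line.
CCN2: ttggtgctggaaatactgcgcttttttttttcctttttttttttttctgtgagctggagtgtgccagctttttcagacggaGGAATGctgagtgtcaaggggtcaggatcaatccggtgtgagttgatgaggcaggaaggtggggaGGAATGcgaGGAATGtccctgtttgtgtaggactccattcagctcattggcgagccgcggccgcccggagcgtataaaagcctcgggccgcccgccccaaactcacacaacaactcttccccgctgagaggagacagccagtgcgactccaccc
ANKRD1: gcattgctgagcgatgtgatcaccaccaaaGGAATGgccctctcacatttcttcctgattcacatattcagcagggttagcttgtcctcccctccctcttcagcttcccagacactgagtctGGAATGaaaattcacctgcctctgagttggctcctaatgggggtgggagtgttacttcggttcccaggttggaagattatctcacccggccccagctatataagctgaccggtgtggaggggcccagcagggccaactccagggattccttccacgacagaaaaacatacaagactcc

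Of 25 tested collagens, the fibre- and network-forming proteins of the extracellular matrix, 17 were higher in SUM159PT and 7 in MDA-MB-231, 12 and 5 of them past 2-fold. The shares of all genes tested were 30.4% and 31.3% at an adjusted p under 0.05 and 14.0% and 13.2% past 2-fold. COL6A3, of the microfibril-forming collagen VI, measured 677 to 1394 CPM (median 963) against 1.93 to 12.8 CPM (median 4.64) (log2 fold change 7.45 ± 0.43, adjusted p = 4.5e-09), and COL5A2, a regulator of fibril diameter, 111 to 224 CPM (median 160.4) against 0.295 to 1.05 CPM (median 0.392) (log2 fold change 8.42 ± 0.27, adjusted p = 3.1e-11). The chains of collagen IV, the network collagen of basement membranes, ran in both directions. COL4A5 measured 30.3 to 89.2 CPM (median 55.0) in SUM159PT against 3.17 to 8.06 CPM (median 5.91) (log2 fold change 3.27 ± 0.34, adjusted p = 1.6e-06), and COL4A6 42.0 to 66.4 CPM (median 49.6) against 0.121 to 0.334 CPM (median 0.190) (log2 fold change 7.89 ± 0.28, adjusted p = 7.5e-11). COL4A1 and COL4A2, which share a promoter region, were higher in MDA-MB-231, at 18 to 47.9 CPM (median 25.8) and 30.0 to 88.5 CPM (median 44.7) in SUM159PT against 89.3 to 115 CPM (median 104) and 238 to 286 CPM (median 263) in MDA-MB-231. COL13A1, a transmembrane collagen, was 53.6-fold higher in MDA-MB-231 (log2 fold change -5.74 ± 0.24, adjusted p = 2e-10).

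The chains of collagen I did not move as a pair. COL1A1 measured 152 to 345 CPM (median 263) against 5.36 to 39.5 CPM (median 10.2) (log2 fold change 4.30 ± 0.44, adjusted p = 1.5e-06), whereas COL1A2 measured 0.105 to 1.27 CPM (median 0.444) against 0.316 to 30.6 CPM (median 0.515). COL1A2 was called higher in MDA-MB-231 (log2 fold change -2.72 ± 0.85, adjusted p = 0.013), but its samples overlapped and the 30.6 CPM came from siNT 3, a library that carries HS578T genes (HS578T median 4930 CPM). Without that library its log2 fold change was -1.56, and without siNT 2 and siNT 3 it was -0.44 and no longer called. The proteoglycan gene BGN, at 24.3 to 139 CPM (median 48.9) against 0.0182 to 6.44 CPM (median 0.0471), had its highest MDA-MB-231 value in the same library.

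Among matrix glycoproteins, 14 of 32 were past 2-fold towards SUM159PT and 4 towards MDA-MB-231. FN1 (fibronectin) measured 1139 to 6039.8 CPM (median 2542) against 127 to 729.9 CPM (median 385) (log2 fold change 2.95 ± 0.62, adjusted p = 0.00097), with a line difference of 4.74 in the siNT and 1.16 in the shNT samples. The elastic fibre gene FBLN1 measured 184 to 1047 CPM (median 405) against 10.03 to 14.9 CPM (median 13.4) and VCAN (versican) 52.9 to 263 CPM (median 144) against 0.103 to 0.759 CPM (median 0.182). The crosslinking enzymes LOX and LOXL4 were 14.1-fold and 366-fold higher in MDA-MB-231, with LOXL4 at 0.0167 to 0.318 CPM (median 0.165) against 46.3 to 82.8 CPM (median 54.8). Of 24 proteases, activators and inhibitors, 7 were past 2-fold towards SUM159PT and 3 towards MDA-MB-231, against 14.0% and 13.2% of all genes tested. TIMP1, an inhibitor of metalloproteinases, measured 983 to 1695 CPM (median 1101) against 193 to 234 CPM (median 218) (log2 fold change 2.496 ± 0.14, adjusted p = 3.7e-09), and TIMP4 ran the other way, at 0 to 0.113 CPM (median 0.0226) against 12 to 16.4 CPM (median 13.8) (log2 fold change -8.28 ± 0.46, adjusted p = 3.3e-09). MMP9 was 17.0-fold higher in MDA-MB-231, and the urokinase gene PLAU 1.92-fold higher but not past 2-fold. Of 17 integrins, 7 were past 2-fold towards SUM159PT and 0 towards MDA-MB-231, among them ITGB3 at 65.8 to 235 CPM (median 124) against 9.87 to 24.1 CPM (median 15.4) and the collagen receptor subunit ITGA11 at 19.3 to 72 CPM (median 34.6) against 0 to 2.65 CPM (median 0.126). The line difference depended on modality for 11 of the 17, against 10.8% of all genes tested. For ITGB3 it was 4.02 in the siNT and 2.07 in the shNT samples.

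The genes of antigen presentation divided by class. MHC class II, which presents peptides to helper T cells and is made by many epithelial cells after interferon-γ, was higher in MDA-MB-231 for 9 of 10 tested genes, all past 2-fold and without overlap (median log2 fold change -3.03). HLA-DRA measured 0.339 to 1.12 CPM (median 0.581) in SUM159PT and 26.9 to 69.8 CPM (median 52.5) in MDA-MB-231 (log2 fold change -6.32 ± 0.34, adjusted p = 2.4e-09), CD74, the invariant chain, 21.8 to 107 CPM (median 44) against 262 to 506 CPM (median 324) (log2 fold change -2.86 ± 0.25, adjusted p = 2.7e-07), and CIITA, the class II transactivator, 2.35 to 9.51 CPM (median 5.56) against 15.0 to 28.4 CPM (median 20.4) (log2 fold change -1.77 ± 0.30, adjusted p = 0.00014). HLA-DQB1, the exception, measured 0.191 to 2.54 CPM (median 0.775) and 0.0774 to 0.826 CPM (median 0.502) (0.82 ± 0.59). HLA genes resemble each other and vary between people, so the counts of single HLA genes are uncertain. In MHC class I and antigen processing, 5 of 16 were past 2-fold towards SUM159PT and 0 towards MDA-MB-231. B2M, the shared light chain, measured 913 to 4640.3 CPM (median 1923) against 546 to 747 CPM (median 655) (log2 fold change 1.61 ± 0.31, adjusted p = 0.00046), and the peptide-trimming peptidase ERAP2 28.6 to 83.5 CPM (median 45.0) against 3.89 to 5.60 CPM (median 4.94) (log2 fold change 3.34 ± 0.24, adjusted p = 4.2e-08). The line difference of B2M was 2.56 in the siNT and 0.66 in the shNT samples. HLA-B (0.15 ± 0.32), HLA-C, HLA-E, TAPBP and ERAP1 did not pass the test, and TAP2 was called towards MDA-MB-231 but not past 2-fold. Of 19 interferon-stimulated genes, 9 were higher in SUM159PT, 2 (MX1 and IRF7) were higher in MDA-MB-231 and 8 did not pass the test. The shares of all genes tested were 30.4% and 31.3%. Past 2-fold were 4 towards SUM159PT and 0 towards MDA-MB-231, against 14.0% and 13.2% of all genes tested. The highest of the 4 by level was OASL, at 127 to 915 CPM (median 486) against 26.8 to 49.2 CPM (median 36.9). The tryptophan-degrading enzyme IDO1 measured 2.08 to 5.77 CPM (median 3.69) in SUM159PT against 0 to 0.158 CPM (median 0.0384), and CD274 (PD-L1) 6.67 to 19 CPM (median 10.1) against 12.5 to 21.2 CPM (median 15.3) (-0.56 ± 0.22), with overlap and a call that was lost in 14 alternatives, 8 of which left out a single library.

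Of 29 tested cytokines and chemokines, 7 were past 2-fold towards SUM159PT and 6 towards MDA-MB-231. CXCL12, the ligand of CXCR4, measured 35.7 to 121 CPM (median 61.2) in SUM159PT against 0 to 0.390 CPM (median 0.0176) in MDA-MB-231, and CXCR4 itself ran the opposite way, at 0 to 0.167 CPM (median 0.0635) against 1.17 to 15.3 CPM (median 5.13) (9.31 ± 0.78 and -6.23 ± 0.74 on the log2 scale). IL33 and TSLP, alarmins of epithelia and fibroblasts, had 0 counts in MDA-MB-231 and were at least 139-fold and at least 184-fold higher in SUM159PT. The T cell attractant CCL5 measured 11 to 201 CPM (median 35.0) against 0.861 to 1.16 CPM (median 1.05) (log2 fold change 5.498 ± 0.62, adjusted p = 3.9e-06). IL11, a cytokine of the IL-6 family, measured 0.634 to 7.93 CPM (median 1.23) against 22.8 to 73.7 CPM (median 45.1) (log2 fold change -4.48 ± 0.67, adjusted p = 5.3e-05), and CCL28 0 to 0.102 CPM (median 0.0331) against 5.52 to 12.5 CPM (median 11) (log2 fold change -7.83 ± 0.46, adjusted p = 5.7e-09). LIF was called towards MDA-MB-231 (log2 fold change -2.83 ± 0.69, adjusted p = 0.0028), with samples that overlapped through SUM159PT siNT 2, at 4.07 to 142 CPM (median 5.18) against 62.9 to 181 CPM (median 121). CXCL8 (interleukin-8) ranged over 11.2 to 1036 CPM (median 97.3) and 11.2 to 374 CPM (median 94.3) and did not pass the test, and IL6, at 20.03 to 1547 CPM (median 119.9) and 9.56 to 204 CPM (median 86.7), passed at an adjusted p of 0.002 with overlap. Of their receptors, 9 of 20 were past 2-fold towards SUM159PT and 2 towards MDA-MB-231. IL1R1 measured 103 to 153 CPM (median 133) against 12.7 to 18 CPM (median 15.2) (log2 fold change 3.12 ± 0.14, adjusted p = 5.3e-10). TNFRSF11B (osteoprotegerin), a decoy receptor, ran the other way, at 0.0167 to 0.204 CPM (median 0.0423) against 1.62 to 13.0 CPM (median 7).

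Receptor tyrosine kinases were towards MDA-MB-231 more often than SUM159PT, 7 against 3 of 23 past 2-fold. PDGFRA and PDGFRB, the platelet-derived growth factor receptors of mesenchymal cells, measured 57.8 to 132 CPM (median 94.9) and 28.4 to 88.1 CPM (median 56.1) in SUM159PT against 0 to 1.23 CPM (median 0.0624) and 7.17 to 17.2 CPM (median 10.8) in MDA-MB-231. MST1R (RON) measured 0.311 to 1.17 CPM (median 0.533) against 15.5 to 30.3 CPM (median 24.4) (log2 fold change -5.19 ± 0.32, adjusted p = 9e-09), MERTK 0.350 to 0.637 CPM (median 0.497) against 6.27 to 12.3 CPM (median 8.01) (log2 fold change -4.06 ± 0.23, adjusted p = 4.1e-09) and ERBB3 0.144 to 0.802 CPM (median 0.443) against 1.70 to 5.22 CPM (median 4.65). EGFR, at 70.8 to 117 CPM (median 92.2) and 116 to 205 CPM (median 149), was higher in MDA-MB-231 but not past 2-fold, and MET did not pass the test (0.04 ± 0.19). Among ligands, HGF, which binds MET, had 0 counts in MDA-MB-231 and 1.51 to 22.4 CPM (median 9.77) in SUM159PT, at least 1149-fold higher, and FGF2 measured 29.5 to 91.4 CPM (median 48.9) against 0 to 0.0615 CPM (median 0). The EGFR ligands were split, with AREG at 0.654 to 1.16 CPM (median 0.877) against 11.5 to 40.7 CPM (median 23.1) (log2 fold change -4.62 ± 0.24, adjusted p = 2e-09) and TGFA at 4.25 to 12.6 CPM (median 8.26) against 40.1 to 64.2 CPM (median 51.7) towards MDA-MB-231, and EREG at 19.2 to 85.0 CPM (median 36.8) against 3.02 to 27.7 CPM (median 12.7) towards SUM159PT, with overlap.

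In the RAS and PI3K pathways, where these lines are known to carry different driver mutations, 2 of 25 genes were past 2-fold towards SUM159PT and 3 towards MDA-MB-231, against 14.0% and 13.2% of all genes tested. NF1, which encodes the RAS-inactivating protein neurofibromin, measured 45.4 to 143 CPM (median 102) in SUM159PT against 13.4 to 21.2 CPM (median 17.9) in MDA-MB-231, 5.64-fold (log2 fold change 2.495 ± 0.22, adjusted p = 3.5e-07). PIK3CD, a PI3-kinase catalytic subunit best known from leukocytes, measured 10.7 to 19.6 CPM (median 15.9) against 58.1 to 68.9 CPM (median 65.0) (log2 fold change -2.08 ± 0.15, adjusted p = 5.5e-08). The levels of BRAF (-0.10 ± 0.16) and PIK3CA (-0.06 ± 0.21) did not pass the test. Of 20 MAPK feedback and target genes, EGR1 (15.5 to 241 CPM (median 121) against 1.05 to 6.27 CPM (median 2.02)) and ETV1 were past 2-fold towards SUM159PT and FOSL1, a FOS-family factor, towards MDA-MB-231 (39.2 to 212 CPM (median 64.6) against 325 to 658 CPM (median 431), -2.51 ± 0.42).

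NRP1 itself, the target of the study's knockdowns and untouched in these samples, measured 151 to 279.7 CPM (median 245) in SUM159PT and 68.6 to 201 CPM (median 139) in MDA-MB-231, with overlap. It was higher in SUM159PT (log2 fold change 0.89 ± 0.21, adjusted p = 0.002), not past 2-fold, and the line difference was 1.43 in the siNT and 0.35 in the shNT samples. In the deposited TPM values it was 0.47 and not called. Its paralogue NRP2 ran the other way, at 12.8 to 24.0 CPM (median 19) against 38.6 to 93.3 CPM (median 50.7) (log2 fold change -1.60 ± 0.17, adjusted p = 2.1e-06), past 2-fold and without overlap. Of their class 3 semaphorin ligands, SEMA3A, SEMA3C and SEMA3F were past 2-fold towards SUM159PT, with SEMA3A at 20.6 to 66.1 CPM (median 26.1) against 1.19 to 3.30 CPM (median 1.72). SEMA3B, SEMA3D, SEMA3E and SEMA3G were past 2-fold towards MDA-MB-231, with SEMA3B at 4.74 to 12.1 CPM (median 5.66) against 45.0 to 74.2 CPM (median 49.0). VEGFA, the endothelial growth factor that also binds NRP1, measured 213 to 582 CPM (median 327) against 96.6 to 212 CPM (median 124) (log2 fold change 1.39 ± 0.20, adjusted p = 4.2e-05). Its receptors FLT1 and KDR, usually markers of endothelium, were detected in MDA-MB-231, at 0.222 to 0.896 CPM (median 0.608) and 1.15 to 10.03 CPM (median 4.91), and FLT1 had 0 counts in SUM159PT. The signal of endothelial genes was mixed, with PECAM1 at 12.1 to 59.2 CPM (median 46.8) in SUM159PT against 0.490 to 1.48 CPM (median 0.887), and ROBO4 at 0.335 to 1.39 CPM (median 0.648) against 75.0 to 120.2 CPM (median 104). In bulk RNA, fewer cells expressing such a gene and less RNA per cell cannot be told apart.

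The TGF-β and BMP genes divided evenly, 8 of 31 past 2-fold each way. TGFB1 measured 223 to 298 CPM (median 254) against 97.4 to 117 CPM (median 101.003) (log2 fold change 1.298 ± 0.11, adjusted p = 1.7e-07) and TGFB2 stood in the opposite direction, as above. BMP4 measured 4.27 to 18.1 CPM (median 6.15) against 58.2 to 213 CPM (median 128) (log2 fold change -4.04 ± 0.44, adjusted p = 2.9e-06), and BMP2 2 to 17.9 CPM (median 5.80) with 3 counts in MDA-MB-231. The activin antagonist FST (follistatin) was 276-fold higher in MDA-MB-231, at 0.0211 to 0.408 CPM (median 0.195) against 26.9 to 88.5 CPM (median 49.0). The BMP target ID2, an inhibitor of helix-loop-helix factors, measured 6.80 to 43.6 CPM (median 14.8) against 0.103 to 0.316 CPM (median 0.161) (log2 fold change 6.63 ± 0.42, adjusted p = 1.1e-08), and SMAD7, the feedback inhibitor, 12.1 to 39.9998 CPM (median 17.5) against 2.78 to 6.27 CPM (median 4.51) (log2 fold change 2.10 ± 0.21, adjusted p = 1.4e-06). Of 32 Wnt genes, 7 were past 2-fold towards SUM159PT and 5 towards MDA-MB-231, against 14.0% and 13.2% of all genes tested. The non-canonical ligands WNT5A and WNT5B ran in opposite directions, WNT5A at 22.1 to 52.1 CPM (median 31.8) against 0.0516 to 0.390 CPM (median 0.151) (log2 fold change 7.54 ± 0.30, adjusted p = 1.6e-10) and WNT5B at 0.717 to 4.38 CPM (median 1.76) against 22.7 to 31.5 CPM (median 25) (log2 fold change -3.81 ± 0.33, adjusted p = 2.8e-07). DKK3, a secreted dickkopf family member, measured 267 to 713 CPM (median 467) against 2.05 to 5.45 CPM (median 3.14) (log2 fold change 7.16 ± 0.20, adjusted p = 1e-11), and the nuclear mediator LEF1 0.227 to 0.517 CPM (median 0.3) against 6.30 to 9.39 CPM (median 7.43) (log2 fold change -4.48 ± 0.20, adjusted p = 3.6e-10). Of 18 Notch genes, 5 were past 2-fold towards SUM159PT and 3 towards MDA-MB-231, against 14.0% and 13.2% of all genes tested. At an adjusted p under 0.05, 5 were higher in SUM159PT and 7 in MDA-MB-231, against 30.4% and 31.3%. NOTCH1, NOTCH2, NOTCH4 and JAG2 were called towards MDA-MB-231 but not past 2-fold. NOTCH3 measured 14.6 to 72.1 CPM (median 28.9) against 1.03 to 3.49 CPM (median 1.80), and of the target genes HES1 and HEY1 were higher in SUM159PT (2.25 ± 0.21 and 3.803 ± 0.34) and HEY2 and HEYL in MDA-MB-231 (-3.14 ± 0.41 and -6.69 ± 0.53).

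Few cell cycle genes were past 2-fold. Of 20 proliferation genes, 0 were past 2-fold in edgeR, 4 were higher in MDA-MB-231 at an adjusted p under 0.05 and 16 did not pass. Of all genes tested, 31.3% were higher in MDA-MB-231 at that threshold. The line difference depended on modality for 9 of the 20, against 10.8% of all genes tested. MKI67, a marker of cycling cells, measured 31.1 to 472 CPM (median 245) and 222 to 415 CPM (median 367) (-0.73 ± 0.34), the lowest value being that of SUM159PT siNT 2. Of 19 regulators, 13 were higher in MDA-MB-231 and 2 in SUM159PT at an adjusted p under 0.05, against 31.3% and 30.4% of all genes tested. Past 2-fold were 3 and 0 of them. CDK6 measured 13.2 to 29.2 CPM (median 20.9) against 63.7 to 115 CPM (median 80.7) (log2 fold change -1.97 ± 0.22, adjusted p = 3e-06), and the CDK inhibitor gene CDKN1C 0.816 to 2.25 CPM (median 1.31) against 4.93 to 11.5 CPM (median 8.38). CDKN2A, CDKN2B and MTAP, neighbours on chromosome 9 that are often lost together in cancer, did not pass the filter on low counts. CDKN2A had 7 counts over the 6 SUM159PT libraries and 0 in MDA-MB-231, and MTAP, an enzyme most cells express, 3 and 1 counts, against a median of 11.7 CPM in HS578T.

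Of 31 tested detoxification and NRF2 target genes, 17 were higher in SUM159PT, 3 were higher in MDA-MB-231 and 11 did not pass the test. Of all genes tested, 30.4% were higher in SUM159PT and 31.3% in MDA-MB-231. NRF2, encoded by NFE2L2, is the transcription factor of the response to oxidants and electrophiles. Of the 31, 14 were past 2-fold towards SUM159PT and 2 towards MDA-MB-231 (median log2 fold change 0.67). NFE2L2 (0.28 ± 0.19) and its inhibitor KEAP1 (-0.02 ± 0.12) did not pass the test. The aldo-keto reductase AKR1C1 measured 246 to 939 CPM (median 442) against 0.861 to 6.06 CPM (median 3.01), AKR1C2 212 to 549.6 CPM (median 416) against 0.580 to 5.36 CPM (median 2.86), and AKR1B1 1977 to 5041 CPM (median 3667) against 280.0 to 509.7 CPM (median 384) (log2 fold change 3.20 ± 0.16, adjusted p = 1.6e-09). The AKR1C genes are near-copies, so the division among them is uncertain. The efflux pump ABCC2 measured 98.6 to 149 CPM (median 119.8) against 0.981 to 1.44 CPM (median 1.33), 97.7-fold (log2 fold change 6.61 ± 0.14, adjusted p = 1.4e-12), and HMOX1, which breaks down haem, 509 to 1359 CPM (median 671) against 40.1 to 99.3 CPM (median 66.0). NQO1 (1.57 ± 0.16) was past 2-fold too. GCLC (-0.27 ± 0.15) and GCLM (0.16 ± 0.20), the subunits of the first enzyme of glutathione synthesis, and SRXN1 (-0.34 ± 0.24), sulfiredoxin, did not pass the test, and the thioredoxin reductase gene TXNRD1 was higher in MDA-MB-231 (-0.84 ± 0.20) but not past 2-fold. In the other direction the glutathione transferase gene GSTM3 measured 0.133 to 0.909 CPM (median 0.239) against 60.6 to 70.9 CPM (median 68.2) (log2 fold change -7.49 ± 0.38, adjusted p = 1.5e-09).

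Monocarboxylate transporters, which carry lactate across the membrane, ran in opposite directions. SLC16A1 (MCT1) measured 105 to 189 CPM (median 127) in SUM159PT against 0.0176 to 1.09 CPM (median 0.369) in MDA-MB-231, whereas SLC16A3 (MCT4) was higher in MDA-MB-231, at 122 to 432 CPM (median 188) against 357 to 813 CPM (median 502) (8.61 ± 0.49 and -1.35 ± 0.15 on the log2 scale). Of 24 glycolysis and lactate genes, 3 were past 2-fold towards SUM159PT and 2 towards MDA-MB-231, against 14.0% and 13.2% of all genes tested. PHGDH, the entry enzyme of serine synthesis, measured 76.7 to 369 CPM (median 225) against 15.2 to 73.5 CPM (median 38.8) (log2 fold change 2.49 ± 0.38, adjusted p = 5.6e-05), and ASS1, of arginine synthesis, 103 to 1388 CPM (median 439) against 18.7 to 67.6 CPM (median 28.1) (log2 fold change 3.97 ± 0.36, adjusted p = 5.1e-07). Of 22 cholesterol and fatty acid genes, 4 were past 2-fold towards MDA-MB-231 and 1 towards SUM159PT. The desaturase FADS2 measured 19 to 31.4 CPM (median 26.1) against 429 to 859.7 CPM (median 730.1) (log2 fold change -4.79 ± 0.19, adjusted p = 1.6e-10).

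Cancer-testis antigen genes, which are silent in most adult tissues outside the germ line and often lie on the X chromosome, differed in both directions. Of 19 tested, 12 were past 2-fold towards SUM159PT and 5 towards MDA-MB-231, with 13 of the 32 listed genes below the filter. MAGEC2 measured 201 to 269 CPM (median 247) in SUM159PT against 0.181 to 0.633 CPM (median 0.397) (log2 fold change 9.22 ± 0.22, adjusted p = 3.1e-12), MAGEA6 102 to 228 CPM (median 173) against 0 to 0.144 CPM (median 0.0346), and PAGE5 49.7 to 105 CPM (median 77.1) against 0 to 0.0443 CPM (median 0.0231). Genes of the MAGEA and CSAG families are near-copies, and reads may be divided among them by the estimate. CT83 and SSX1 ran the other way, CT83 at 1.95 to 5.35 CPM (median 3.11) in MDA-MB-231 with 1 count in SUM159PT and SSX1 at 0 to 0.200 CPM (median 0.0438) against 2.15 to 6.79 CPM (median 4.18), and MAGEB2 had 0 counts in SUM159PT (at least 141-fold higher in MDA-MB-231). Of the imprinted genes, SNRPN measured 66.2 to 126 CPM (median 82.4) against 0 to 0.164 CPM (median 0) and PLAGL1 10.2 to 15.6 CPM (median 13.4) against 0.0202 to 0.0703 CPM (median 0.0403), whereas MEST was 3.44-fold higher in MDA-MB-231 (log2 fold change -1.78 ± 0.16, adjusted p = 3.5e-07).

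Differences were also laid out along the chromosomes, over 14367 protein-coding genes. The median log2 fold change of a chromosome ran from -0.59 on chromosome 9, -0.46 on 20 and -0.39 on 3 and 11 to 0.27 on X and 0.39 on 18. On chromosome 18, 25.5% of 196 genes were past 2-fold towards SUM159PT and 8.67% towards MDA-MB-231, and on chromosome 9, 8.22% and 19.2% of 572. In 13470 windows of 40 neighbouring genes, the central 95% of the window medians lay between -0.85 and 0.65. The window furthest towards SUM159PT, chrX:136665547-152769716 (GRCh38), had a median of 3.51 and 35 of 40 genes called higher there. It holds MAGEC1, MAGEC2, SPANX genes and the MAGEA and CSAG genes. The neighbouring window chrX:153929225-155943769 had a median of 1.31, with RPL10 and FLNA among 35 of 40 genes called higher in SUM159PT and 0 called higher in MDA-MB-231. On chromosome 18 the window 44680173 to 56651600, with SMAD2, SMAD4, SMAD7 and TCF4, had a median of 1.19.

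Towards MDA-MB-231 the furthest window was chr19:52031378-54102692, with a median of -2.01 and 34 of 40 genes called higher in MDA-MB-231, most of them zinc finger (ZNF) genes. The stretch furthest towards MDA-MB-231 changed with the size of the window, to chr19:19710472-21852125 with 20 genes and chr11:86201212-111881243 with 80. The window chr5:141094606-141879246, of the clustered protocadherins PCDHB and PCDHG, had a median of -1.28, at -0.71 in the siNT and -1.81 in the shNT samples. A window on chromosome 9, 37879400 to 77421537, had a median of -1.17. Zinc finger and protocadherin genes are families of similar sequence, and gene copy number was not measured here, so expression over these stretches cannot be set against the number of copies.

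**Figure D5:**
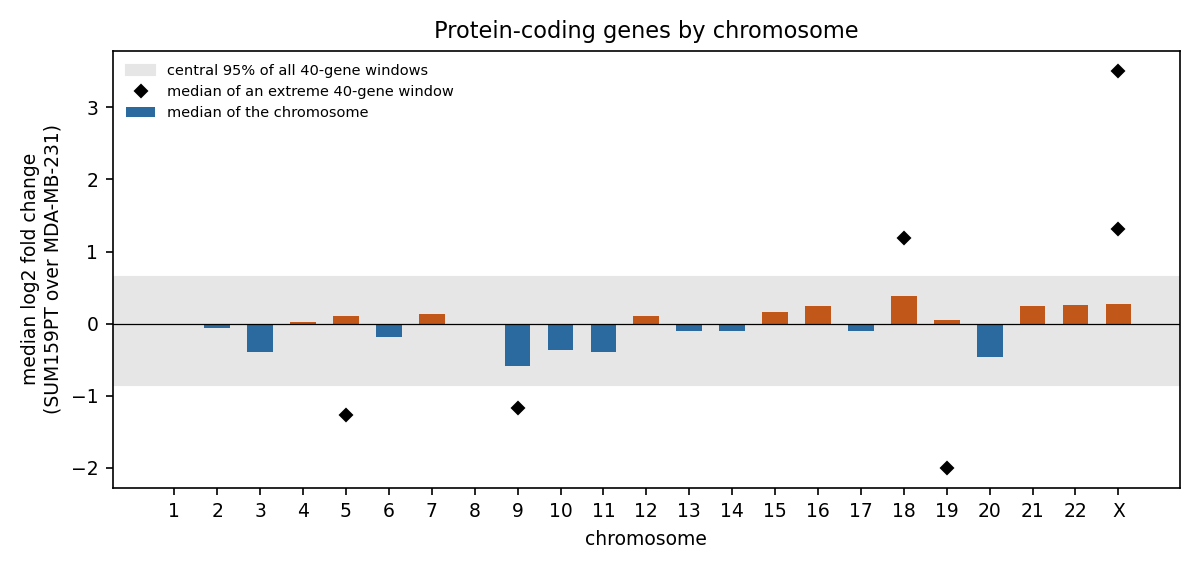
Median log2 fold change, SUM159PT over MDA-MB-231, of the tested protein-coding genes of each chromosome (bars, orange above 0 and blue below), with the 3 windows of 40 neighbouring genes furthest in each direction (diamonds) over the central 95% of all windows (grey band, -0.85 to 0.65). Chromosome medians run from -0.59 to 0.39. They are taken over 130 to 1461 genes each, so the band, made of 40-gene windows, is not a scale for them. The X chromosome holds the window furthest out, at 3.51.

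A gene was called on in a line at 10 CPM or more in each of its 6 samples and off in the other at 0.1 CPM or less in each. By this rule 47 genes (0.242% of those tested) were on in SUM159PT and off in MDA-MB-231, and 24 (0.124%) the reverse. The 47 comprised 41 protein-coding genes and 6 lncRNAs, 7 lay on the X chromosome, 6 were MAGE, PAGE or CSAG genes, and 28 reached 1 CPM in HS578T. Leaving out MDA-MB-231 siNT 3 raised the 47 to 66. The sulfatase gene SULF2, which trims heparan sulfate, measured 108 to 210.0 CPM (median 148) in SUM159PT with 2 counts in MDA-MB-231, a ratio of 23963 (95% interval 6634 to 197870.0), the calcium-binding matrix gene SMOC1 50.7 to 167 CPM (median 80.9), and the receptor tyrosine kinase gene ROS1 13.9 to 41.3 CPM (median 22.3). S100A9 and S100A8, the subunits of calprotectin, had 2 counts and 1 count in MDA-MB-231 and ranged widely in SUM159PT, over 19.8 to 1754 CPM (median 100.01) and 2.20 to 569 CPM (median 85.3), the S100A9 maximum being that of siNT 2.

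Of the genes on in MDA-MB-231 and off in SUM159PT, 22 were protein-coding. MALL, a membrane raft protein, measured 14.3 to 30.1 CPM (median 26.7) with 0 counts in SUM159PT, at least 2306-fold higher, and DSC2, a desmosomal cadherin, 10.5 to 16.2 CPM (median 14.2) with 0 counts, at least 1310.4-fold higher. PYCARD, the adaptor of inflammasomes, measured 12.9 to 19.6 CPM (median 17.3) against 0 to 0.0680 CPM (median 0.0225), and IGFBP1 11.7 to 26.3 CPM (median 19.2) against 0 to 0.0680 CPM (median 0). Genes with large fold changes that just missed this rule included GPX3, a secreted glutathione peroxidase, at 0.1 to 0.360 CPM (median 0.151) against 194 to 241 CPM (median 230.5) (log2 fold change -10.24 ± 0.26, adjusted p = 4.7e-12). The matrix peroxidase PXDN measured 0.0167 to 0.402 CPM (median 0.229) against 301 to 447 CPM (median 383), the liver glycogen phosphorylase PYGL 0.0167 to 0.318 CPM (median 0.0741) against 169 to 209 CPM (median 176), and KISS1, the kisspeptin precursor, 0 to 0.159 CPM (median 0.0378) against 43.7 to 86.7 CPM (median 55.3). In all 4 the SUM159PT samples stayed under 1 CPM.

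The genes with the largest absolute difference in mean CPM towards SUM159PT included FTH1, AKR1B1 and FN1. FTH1, the ferritin heavy chain, measured 4869 to 50026 CPM (median 13692) in SUM159PT against 1549 to 3769.5 CPM (median 2155) in MDA-MB-231 (log2 fold change 2.89 ± 0.32, adjusted p = 3.3e-06), the highest value again being SUM159PT siNT 2. The translation elongation factor EEF2 measured 3843 to 6421 CPM (median 4801) against 1115 to 1804 CPM (median 1472) (log2 fold change 1.77 ± 0.12, adjusted p = 2e-08), RPL10 2366 to 4483 CPM (median 2785) against 500.2 to 951 CPM (median 718), and RPS2 3872 to 5293 CPM (median 4409) against 1354 to 2528 CPM (median 1872). Beside these values, ribosomal protein genes took 7.23% to 9.46% of the counts in SUM159PT libraries and 4.56% to 5.91% in MDA-MB-231 libraries, ranges that did not overlap. Towards MDA-MB-231 they included TGM2 (transglutaminase 2), a protein crosslinking enzyme, at 66.6 to 358 CPM (median 230.5) against 1354 to 2287 CPM (median 1941) (log2 fold change -3.27 ± 0.31, adjusted p = 8e-07), and HMGA1, a chromatin architectural factor, at 381 to 814 CPM (median 646) against 1263 to 1887 CPM (median 1583).

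The line difference depended on modality for 2097 genes (10.8%) at an adjusted p under 0.05 for the interaction, and this count was sensitive to single libraries, at 653 to 3526 with each library left out in turn and 75 without MDA-MB-231 siNT 2 and siNT 3, a fit that leaves that group with 1 library, assumed to vary like the other groups. The lowest count was without MDA-MB-231 shNT 3 and the highest without SUM159PT siNT 2. Of the 5287 genes past 2-fold, 5284 had the same direction in siNT and in shNT samples, 3 had opposite directions and 488 depended on modality in size. Among the 8 genes with the lowest interaction p, TIMP3 had a line difference of 4.08 in the siNT and 1.51 in the shNT samples, AKR1C1 of 5.83 in the siNT and 9.40 in the shNT samples and the adhesion gene NRCAM of 4.36 in the siNT and 0.85 in the shNT samples, on the log2 scale. FLRT2 changed direction, at 2.11 in the siNT and -1.29 in the shNT samples, and so did NPTXR, at 1.16 in the siNT and -1.16 in the shNT samples. Of the 2097 genes, 978 had opposite directions in the modalities. The modalities differ in delivery, selection and time of harvest together, and these cannot be told apart.

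Transcript use was compared for 9 genes of adhesion and signalling, over 18 transcripts, as the percent of its gene's abundance that RSEM gave each transcript, with an exact permutation test within modality (400 arrangements, smallest possible p 0.005, adjusted over 18). CTNND1-222, a transcript of the p120 catenin gene, took 9.55% ± 5.70 (SD, n = 6) in SUM159PT and 16.7% ± 2.93 in MDA-MB-231, with overlap (exact permutation p = 0.005, adjusted p = 0.045). Of the 18, 16 had adjusted p of 0.15 or more by the exact permutation test, among them NRP1-206, the more used of the NRP1 transcripts compared, at 43.4% to 62.3% of NRP1 in SUM159PT and 42.7% to 52.6% in MDA-MB-231. Without any 1 of the MDA-MB-231 libraries 0 transcripts passed, and without SUM159PT siNT 2, 4 passed.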

How the data were processed

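RNA-seq of 12 NT control libraries (3 siNT and 3 shNT for each of SUM159PT and MDA-MB-231) was used, with HS578T NT controls for reference. Per the labels, libraries were made with a stranded polyA kit. The authors trimmed reads with Trim Galore 0.6.5, aligned them with STAR 2.7.2b to GRCh38 and estimated abundance with RSEM 1.3.3, after FastQC 0.11.9. The deposited expected counts per gene are RSEM estimates, in which reads shared by similar genes are divided among them, so near-identical genes are uncertain. The deposited TPM values were made by the authors with RSEM from the same reads, scaled by transcript length and to a fixed total per library. The deposited isoform percentages (IsoPct) are the percent of a gene's abundance that RSEM gave each transcript.

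Expected counts were rounded, filtered with filterByExpr and scaled by TMM, which left 19420 of 78894 genes. Lines were compared with edgeR 4.0.16 (R 4.3.3) by the quasi-likelihood test with modality as covariate, and with glmTreat for differences over 2-fold, with Benjamini-Hochberg adjustment over all genes tested. The dependence on modality was the interaction term. TPM values were tested with limma 3.58.1 on log2(TPM + 0.5), and DESeq2 1.42.0 was an alternative. Other alternatives were size factors, filters, covariates, single modalities, all 52 samples and each library left out. Transcript shares were compared with a two-sided exact permutation test. Scripts were tested on simulated data. Chromosome positions are from Gencode 44 (GRCh38), matched by gene ID.

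Depth was 37007132 to 63173667 expected counts per library. Intervals cover counting error only. The study's methods call the replicates independent, and for shRNA they were successive passages, so p-values measure the spread between such samples of 1 line. Genes named were members of 43 lists, the 12 with the largest fold and the 10 with the largest CPM difference in each direction, genes on in one line and off in the other, and the 8 with the lowest interaction p. The comparison and the lists were chosen with earlier results of these data known. Fold changes of genes with 0 counts in a line are given as bounds, with a floor of 3 counts over its 6 libraries. XIST and Y-linked genes were left out. Some named genes are not reported here, and counts over lists, genes and transcripts include them.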

Additional observations from a re-analysis of the deposited data

Results flagged for a closer look

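For the genes named here, the difference between the cell lines was also tested for dependence on modality, as the log2 fold change (SUM159PT over MDA-MB-231) in the shNT samples minus that in the siNT samples, and 43 genes passed at an adjusted p under 0.05 in edgeR.

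A value below 0 means that the line difference lay further towards MDA-MB-231 in the shNT samples. The values furthest below 0 were those of KDR (-4.69), CXCR4 (-4.40), FST (-3.89), FN1 (-3.58), NRCAM (-3.51), FLRT2 (-3.40) and LOX (-3.31). Next came SEMA3C (-2.81), TIMP3 (-2.57), NPTXR (-2.32), BMP4 (-1.97), COL4A5 (-1.96), ITGB3 (-1.95) and CD24 (-1.92). They were followed by FBLN1 (-1.91), B2M (-1.89), SEMA3A (-1.88), WNT5B (-1.63), KRT17 (-1.62), TGM2 (-1.60) and COL4A6 (-1.58). Values nearer to 0 were found for SEMA3F (-1.43), TGFB2 (-1.36), TGFA (-1.26), COL13A1 (-1.18), NRP1 (-1.07), NR2F2 (-0.90) and EGFR (-0.87).

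A value above 0 means that the line difference lay further towards SUM159PT in the shNT samples. The values nearest to 0 were those of VIM (0.75), AXL (0.90), HMGA1 (1.02), GCLM (1.11), SRXN1 (1.32), ALDH1A3 (1.32), HMOX1 (1.42) and COL1A1 (1.99). The values furthest above 0 were those of SLC16A1 (2.29), AKR1C2 (2.52), IL11 (2.99), EREG (3.02), AKR1C1 (3.57), CXCL12 (4.96) and BGN (7.31). BGN, CXCL12 and COL1A1 are genes that HS578T expresses, and their MDA-MB-231 siNT 3 values stood above those of the shNT libraries. Without MDA-MB-231 siNT 2 and siNT 3, which leaves that group with 1 library, 32 of the 43 genes kept their direction but no longer passed, and 1, CXCL12, changed direction. The values of the 32 were at a median of 103% of those with all libraries, 19 of them at least as large, and 23 genes also missed the threshold without at least 1 single library of the 12.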

How the results depend on the processing

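Over all alternatives, the direction of the line difference was kept for most named genes. It reversed for FLRT2 in the shNT samples alone (-1.28), for NPTXR in the siNT samples alone (1.23) and for HLA-B in the shNT samples alone (-0.60), genes that were not called with both modalities, and the dependence on modality of CXCL12 reversed without MDA-MB-231 siNT 2 and siNT 3 (-1.56, and up to 7.31 with single libraries left out). Requiring at least 10 counts in all 12 samples, which removes genes absent from a line, left 7948 genes different (3907 higher in SUM159PT, 4041 in MDA-MB-231) and 1814 past 2-fold (907 in each direction). The deposited TPM values gave 2738 genes past 2-fold, 1021 of them higher in SUM159PT. Genes whose difference depended on modality numbered 653 to 3526 with single libraries left out, 75 without MDA-MB-231 siNT 2 and siNT 3 (1 library left in that group, assumed to vary like the others), 3160 with no filter and 3407 in DESeq2. With at most 0.5 CPM allowed in the other line, 105 genes were on in SUM159PT and 82 in MDA-MB-231, and with single libraries left out 47 to 66 and 24 to 31. The window medians furthest out were 6.62 (chrX:151912495-153582939) and -4.39 (chr19:19710472-21852125) with 20 genes and 1.51 (chrX:135248920-154421726) and -0.93 (chr11:86201212-111881243) with 80, the stretches towards MDA-MB-231 being others than with 40. With single libraries left out, 0 to 4 transcripts passed and the difference of CTNND1-222 was -7.94 to -6.05 percentage points. Single libraries left out gave 11730 to 12735 genes different and 5385 to 5732 past 2-fold. The causes of these shifts were not tested.

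The replicate numbers were checked for pairing. In their deviations from the group means, samples of the same number correlated at 0.054 to 0.18 within a line, where samples of different numbers correlated at -0.19 to 0.067, and at -0.29 to 0.18 between lines. Not every pair was over 0.1, and not every sample correlated best with its own number, so the main fit did not pair them. Whether they share more than a number was not tested beyond a fit with a replicate block. With a replicate block, 11709 genes differed, 5190 were past 2-fold and 1729 depended on modality.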
